A study of Mus musculus with 8 samples.

Results

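The 50 genes described here carry out mitosis: they drive entry into it, condense and hold the chromosomes, build the spindle, attach chromosomes to it, time their separation and cut the cell apart. They were chosen by symbol as known genes of mitosis, the spindle and the kinetochore, and all 50 were among the 13245 genes of the deposited table. All 50 also passed the filter on low values, a mean of at least 1 CPM (read counts scaled to library size, with sizes adjusted by the trimmed mean of M-values, TMM), which left 11503 genes for testing.

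In a dividing cell, cyclin-dependent kinase 1 with its cyclins switches on entry into mitosis, and further kinases then act on centrosomes, chromosomes and the spindle. Condensins compact the chromosomes, kinetochores tie them to microtubules, and the spindle checkpoint holds back the anaphase-promoting complex until each chromosome is attached. Many of these genes are transcribed in late cell cycle phases under the DREAM, B-MYB and FOXM1 regulators and are little expressed in resting T cells, so their transcripts are used as marks of cycling in lymphocytes.

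RNA-seq data were available from lymph node CD8 T cells sorted as positive for Ly6C and CXCR3, a memory phenotype. One group was from B6 mice, the wild-type C57BL/6 control, and the other from CD103Tg mice, which overexpress CD103, the alpha E integrin chain, product of the gene Itgae. There were 4 libraries per group, and the labels do not say whether each came from a separate animal, so p-values measure the spread between these libraries. The promoter driving the transgene and the age of the mice are not given in the sources used here. Itgae (chromosome 11, 73090583 to 73147446, GRCm38) was at 41.4, 51.4, 37.5 and 174 CPM in B6 replicates 1 to 4. In CD103Tg replicates 1 to 4 it was at 3469, 4692, 4169 and 5509 CPM, so each library's level matched its label. B6 replicate 4 had the highest Itgae level of its group.

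Steps between the low values of the table give an estimated 50187279 to 56371476 reads per library, so that 1 read was worth 0.0171 to 0.0203 CPM. The lowest estimate for any of the 50 genes in any library was 47 reads. Log2 levels correlated at 0.989 to 0.995 between libraries of a group and at 0.964 to 0.973 between groups. The 10 CD8 T cell and sort genes together summed to 9183 to 10611 CPM in B6 and 9024 to 10024 CPM in CD103Tg, led by Ly6c2 and Cd8b1. Ly6c1 did not pass the filter on low values. In the test described below, 0 of the other 9 rose and 2 fell (22.2%, beside 13.8% of tested genes). Their log2 differences, CD103Tg minus B6, ran from -0.64 to 0.12.

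The upstream sequences of a few members are shown first, because a pair of short motifs recurs in promoters of genes transcribed late in the cell cycle. These are the cell cycle homology region (CHR), searched here as TTTGAA or TTCGAA, and the CCAAT box, searched as CCAAT, both on either strand. RefSeq windows of 250 bases before the start (GRCm38.p6) were on hand for 42 of the 50 genes. Ccna2, Aurkb, Incenp, Spc24, Kif20a, Tpx2, Stmn1 and Smc4 had none. The 6 windows printed were chosen after the values were seen: 4 members that rose strongly, and the 2 members that did not pass the test. The 4 all hold both motifs. Members that rose strongly without either motif are named below, and their windows are not printed. Capitals mark CHR and CCAAT matches, which read as TTCAAA and ATTGG where they lie on the other strand. TTCGAA is its own reverse complement and was counted once.

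Top2a (chr11:99024190-99024439, minus strand): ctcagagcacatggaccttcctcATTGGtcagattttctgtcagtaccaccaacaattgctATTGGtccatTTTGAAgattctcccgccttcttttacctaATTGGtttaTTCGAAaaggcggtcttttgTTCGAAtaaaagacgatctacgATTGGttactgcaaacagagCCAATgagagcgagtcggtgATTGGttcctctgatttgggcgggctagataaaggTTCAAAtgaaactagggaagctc
Ccnb2 (chr9:70421555-70421804, minus strand): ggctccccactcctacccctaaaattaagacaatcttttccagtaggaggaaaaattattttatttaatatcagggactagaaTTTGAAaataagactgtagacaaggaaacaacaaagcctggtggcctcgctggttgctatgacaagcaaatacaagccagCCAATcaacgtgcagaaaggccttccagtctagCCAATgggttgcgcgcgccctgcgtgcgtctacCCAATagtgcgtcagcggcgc
Kif11 (chr19:37376132-37376381, plus strand): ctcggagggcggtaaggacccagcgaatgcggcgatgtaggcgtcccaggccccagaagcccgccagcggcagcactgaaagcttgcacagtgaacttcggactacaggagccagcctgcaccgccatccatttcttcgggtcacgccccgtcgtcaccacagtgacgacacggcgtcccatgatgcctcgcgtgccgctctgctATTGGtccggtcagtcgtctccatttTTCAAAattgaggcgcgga
Mki67 (chr7:135716380-135716629, minus strand): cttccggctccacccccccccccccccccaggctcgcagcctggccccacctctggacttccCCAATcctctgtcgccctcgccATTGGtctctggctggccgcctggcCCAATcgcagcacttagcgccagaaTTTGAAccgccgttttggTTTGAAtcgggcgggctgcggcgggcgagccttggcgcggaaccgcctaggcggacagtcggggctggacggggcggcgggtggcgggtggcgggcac
Kif23 (chr9:61946800-61947049, minus strand): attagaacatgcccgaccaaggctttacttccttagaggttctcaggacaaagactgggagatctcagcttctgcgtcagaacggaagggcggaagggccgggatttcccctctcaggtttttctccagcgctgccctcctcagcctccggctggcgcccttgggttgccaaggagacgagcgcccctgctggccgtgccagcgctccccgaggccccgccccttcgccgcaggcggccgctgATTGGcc
Kif20b (chr19:34922108-34922357, plus strand): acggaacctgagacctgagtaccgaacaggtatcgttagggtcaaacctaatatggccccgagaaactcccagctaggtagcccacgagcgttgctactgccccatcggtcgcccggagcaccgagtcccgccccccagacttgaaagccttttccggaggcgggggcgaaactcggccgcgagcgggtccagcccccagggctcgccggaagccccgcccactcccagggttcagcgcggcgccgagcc

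The Top2a window held 4 CHR and 6 CCAAT matches, the Mki67 window 2 and 3, the Ccnb2 window 1 and 3, and the Kif11 window 1 of each. In the Kif11 window they began 19 and 45 bases before the start. The Kif23 window held a single CCAAT match 7 bases before the start, and the Kif20b window held neither motif. Over the 42 members with a window, 20 (47.6%) held a CHR, against 19.6% of the 27025 genes in the promoter table and 14.8% of the 8542 tested genes in it. A CCAAT box was in 31 of the 42 (73.8%), against 37.5% and 41.1%, and both motifs were in 17 (40.5%), against 7.93% and 6.87%. At least 2 CCAAT boxes were in 22 (52.4%), against 11.5% and 16.2%. E2F-type matches (TTCCCGC or TTCGCGC or TTGCCGC or TTGGCGC on either strand) were in 6 (14.3%), against 9.01% and 16.8%. The shares are descriptions of letters in these windows, and a match is not evidence of binding. Bases outside the windows were not searched, and the result can turn on the annotated start: a Prc1 window held no CHR and another held 1. A match in any window of a gene was counted. Members without either motif in their window included Nusap1, Birc5 and Anln, whose log2 differences between the groups, given with their roles, were 2.20, 2.11 and 2.03. Members with both motifs included Bub3, Smc2 and Ncapd2, whose differences were 0.17, 0.51 and 0.66. A relation between motifs and the size of the difference was not tested.

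The mitosis genes were higher in CD103Tg almost throughout. With limma on log2(CPM + 1) and Benjamini-Hochberg adjustment over all tested genes, 47 of the 50 rose, 1 (Smc4) fell and 2 (Kif20b and Kif23) did not pass the threshold of 0.05. Over the whole set of 11503 genes, the calls were 17.4% higher and 13.8% lower. In 47 members every CD103Tg library was above every B6 library, against 17.4% of tested genes. In 1 member, Smc4, every CD103Tg library was below every B6 library, against 13.6%. The median log2 difference of the 50 was 1.71, with a range of -0.52 to 2.26, beside -0.005 over all tested genes. Differences of at least 1 were reached by 36 members that rose, against 3.64% of tested genes, and 13 members reached 2. Because these are bulk libraries, more cells of a cycling kind and more RNA per cell cannot be told apart in any of these values.

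**Figure D1:**
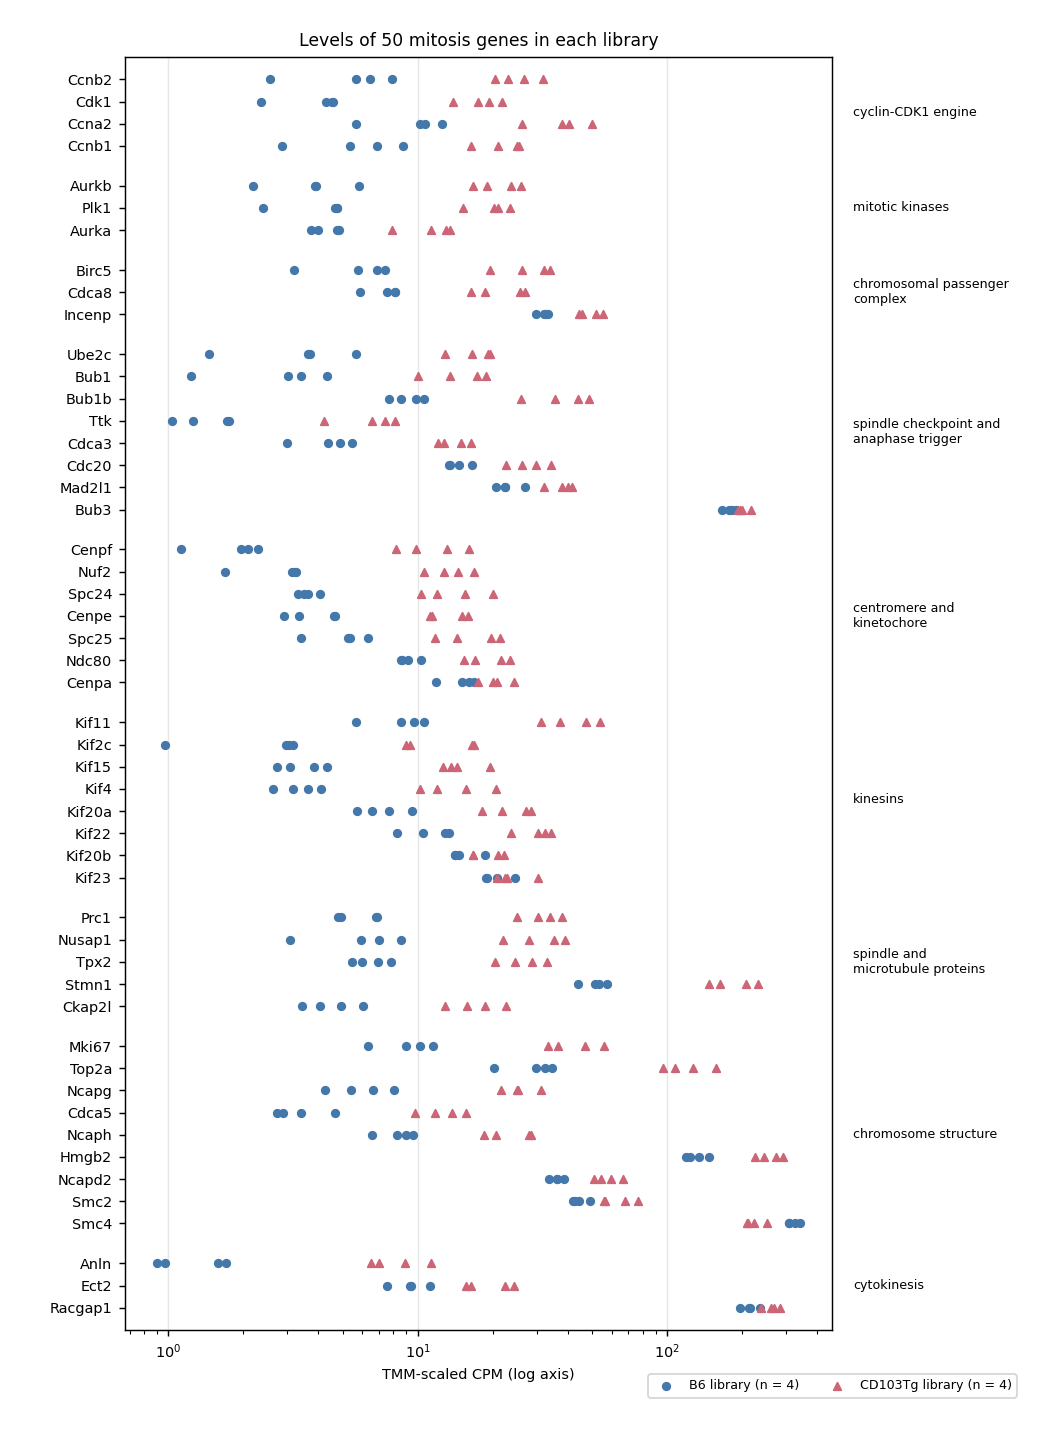
TMM-scaled CPM (log axis) of the 50 mitosis genes, grouped by role; each point is a library, with 4 B6 libraries as circles and 4 CD103Tg libraries as triangles. The triangles lie to the right of the circles for 47 genes, to the left for Smc4, and overlap them for Kif20b and Kif23.

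The engine of mitotic entry rose as a whole, 4 of 4 genes, with log2 differences of 1.78 to 2.06. Cdk1, the kinase that triggers mitosis (chromosome 10, 69335146 to 69352938), was at 4.58, 4.31, 4.54 and 2.36 CPM in B6 and 17.5, 19.3, 13.9 and 21.7 CPM in CD103Tg. Its log2 difference was 1.96 ± 0.18 (SE; adjusted p = 1.49e-05). The groups did not overlap, B6 replicate 4 was the lowest library and CD103Tg replicate 4 the highest. Ccnb2, a mitotic B-type cyclin (chromosome 9, 70407692 to 70421547), had the same ordering at the ends, with 7.92, 5.65, 6.44 and 2.56 CPM in B6 and 23.0, 26.8, 20.5 and 31.9 CPM in CD103Tg, a difference of 2.06 ± 0.24 (adjusted p = 8.59e-05). Ccnb1, the main partner of CDK1 at mitotic entry, had the smallest difference of the 4, 1.78 ± 0.25 (adjusted p = 0.000255). Its levels were 8.70, 6.90, 5.37 and 2.87 CPM in B6 and 21.1, 25.5, 16.3 and 25.1 CPM in CD103Tg. Ccna2, the cyclin of S phase and early mitosis, rose by 1.89 ± 0.22, and 12.5% of its exon bases are shared with Exosc9, from which these unstranded libraries cannot separate it.

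The 3 mitotic kinases rose. Plk1, which acts on centrosomes, kinetochores and cytokinesis (chromosome 7, 122159439 to 122169873), was at 4.73, 4.66, 4.74 and 2.39 CPM in B6 and 20.3, 21.0, 15.2 and 23.4 CPM in CD103Tg, a log2 difference of 2.05 ± 0.18 (adjusted p = 1.30e-05). B6 replicates 1 to 3 were nearly level, and replicate 4 was lower. Aurkb, the kinase of the chromosomal passenger complex, was at 5.83, 3.86, 3.91 and 2.19 CPM in B6 and 18.9, 23.6, 16.6 and 25.9 CPM in CD103Tg, a difference of 2.20 ± 0.21. Aurka, the kinase of centrosomes and spindle poles, was at 3.98, 4.74, 4.85 and 3.72 CPM in B6 and 11.3, 13.0, 7.93 and 13.5 CPM in CD103Tg. Its difference, 1.21 ± 0.15 (adjusted p = 0.000150), was the smallest of the 3 kinases, although the groups did not overlap.

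The other chromosomal passenger genes, whose proteins sit with Aurora B at centromeres and then at the midzone, rose by unequal amounts. Birc5, which encodes survivin (chromosome 11, 117849251 to 117855743), was at 7.37, 6.88, 5.75 and 3.18 CPM in B6 and 26.3, 32.0, 19.5 and 34.0 CPM in CD103Tg, a difference of 2.11 ± 0.22 (adjusted p = 3.78e-05). Incenp, the scaffold of the complex, was at 32.6, 33.3, 29.7 and 32.0 CPM in B6 and 44.3, 52.0, 45.5 and 55.5 CPM in CD103Tg. That was a log2 difference of 0.61 ± 0.08 (adjusted p = 0.000184), with little spread among B6 libraries. Cdca8, the borealin gene, lay between them at 1.43 ± 0.16.

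All 8 genes grouped under the spindle checkpoint and the anaphase trigger rose, with Cdca3, named for mitotic entry, placed among them. Their median log2 difference was 1.55, with a range of 0.17 to 2.03. Bub1b, which encodes the checkpoint protein BUBR1 (chromosome 2, 118598211 to 118641591), was at 10.6, 9.85, 8.57 and 7.67 CPM in B6 and 35.7, 44.0, 26.0 and 48.5 CPM in CD103Tg, a difference of 1.93 ± 0.17 (adjusted p = 1.19e-05). Bub1, a checkpoint kinase, was at 4.34, 3.41, 3.01 and 1.23 CPM in B6 and 13.5, 18.8, 10.0 and 17.3 CPM in CD103Tg, a difference of 2.03 ± 0.26. Ube2c, the ubiquitin-conjugating enzyme of the anaphase-promoting complex, had the same difference, 2.03 ± 0.25, from 5.64, 3.70, 3.64 and 1.46 CPM to 16.5, 19.2, 12.9 and 19.5 CPM. These 3 genes thus shared a low B6 replicate 4 and a low CD103Tg replicate 3. Ttk, the kinase that starts checkpoint signalling, rose by 1.61 ± 0.18, and Cdca3, a cell division gene named as an activator of mitotic entry, by 1.48 ± 0.15. Cdc20, which activates the anaphase-promoting complex, rose by 0.91 ± 0.12, and Mad2l1, which encodes the checkpoint inhibitor MAD2, by 0.69 ± 0.10.

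Bub3, the partner that brings BUB1 and BUBR1 to kinetochores, was the exception in size (chromosome 7, 131560222 to 131571895). It was at 166, 189, 182 and 177 CPM in B6 and 200, 217, 193 and 196 CPM in CD103Tg, so the groups were apart by a few CPM. Its log2 difference was 0.17 ± 0.06 (adjusted p = 0.0369). The Bub3 call was lost with equal totals (adjusted p = 0.0738) and with quantile normalization (0.0609). It was also lost without B6 replicate 1 (0.0979), 3 (0.0582) or 4 (0.0608), without CD103Tg replicate 1 (0.0711), 2 (0.112) or 3 (0.0504), and without both libraries numbered 4 (0.0580).

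All 7 centromere and kinetochore genes rose, with a median log2 difference of 1.56. Nuf2, a microtubule-binding subunit of the NDC80 complex (chromosome 1, 169497934 to 169531464), was at 3.13, 3.22, 3.24 and 1.69 CPM in B6 and 12.7, 14.5, 10.6 and 16.8 CPM in CD103Tg, a difference of 1.95 ± 0.17 (adjusted p = 1.31e-05). Cenpf, a large kinetochore protein of late cell cycle phases, was at 2.29, 1.95, 2.09 and 1.13 CPM in B6 and 9.82, 13.1, 8.19 and 16.0 CPM in CD103Tg. Its difference was the largest of the 7, 2.14 ± 0.20, and the ratio of the group means was 6.32. Spc24 and Spc25, the inner subunits of the NDC80 complex, rose by 1.70 ± 0.17 and 1.53 ± 0.20, Cenpe, the kinesin-like motor of kinetochores, by 1.56 ± 0.16, and Ndc80 by 0.99 ± 0.13. Cenpa, the histone H3 variant that marks centromeres at all cell cycle stages, had the smallest difference, 0.45 ± 0.12 (adjusted p = 0.0162). Its levels were 15.0, 11.9, 16.9 and 16.0 CPM in B6 and 20.0, 20.9, 17.5 and 24.4 CPM in CD103Tg, and the highest B6 library was just below the lowest CD103Tg library.

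Of the 8 kinesins, motor proteins of the spindle and midzone, 6 rose and 2 did not pass the test. Kif15, which slides spindle microtubules (chromosome 9, 122951046 to 123018733), was at 3.08, 4.33, 3.83 and 2.73 CPM in B6 and 13.6, 14.4, 12.6 and 19.6 CPM in CD103Tg, a difference of 1.83 ± 0.15 (adjusted p = 8.26e-06). Kif11, the motor that pushes spindle poles apart, had the largest difference of the kinesins, 2.17 ± 0.19. It was at 10.6, 9.71, 8.57 and 5.68 CPM in B6 and 37.2, 47.4, 31.1 and 53.9 CPM in CD103Tg. Kif2c, a microtubule-depolymerizing kinesin, rose by 1.98 ± 0.27, Kif4, a chromosome motor, by 1.80 ± 0.19, Kif20a, a midzone motor, by 1.58 ± 0.16, and Kif22, a chromosome arm motor, by 1.35 ± 0.15. Exon bases of Kif20a and Kif4 overlap those of Cdc23 and Pdzd11 over 29.3% and 15.1% of their length.

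Kif23, which encodes MKLP1 of centralspindlin (chromosome 9, 61915905 to 61946774), was at 24.6, 19.0, 20.9 and 18.8 CPM in B6 and 22.5, 22.8, 20.8 and 30.4 CPM in CD103Tg. The groups overlapped, and the log2 difference of 0.20 had a 95% interval of -0.07 to 0.46 (adjusted p = 0.252). Kif20b, a kinesin of late cytokinesis (chromosome 19, 34922361 to 34975745), was at 14.1, 18.7, 14.7 and 14.1 CPM in B6 and 16.6, 22.2, 16.7 and 21.1 CPM in CD103Tg. B6 replicate 2 lay among the CD103Tg libraries, and the difference of 0.29 had an interval of 0.03 to 0.56 (adjusted p = 0.0924). Without B6 replicate 2, Kif20b passed at 0.38 with adjusted p = 0.0344. Both intervals end below the differences of the 6 kinesins that rose.

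The 5 spindle and microtubule genes rose within a narrow span, 1.71 to 2.26. Prc1, which bundles antiparallel microtubules in the midzone (chromosome 7, 80294450 to 80316259), had the largest difference of the 50 genes, 2.26 ± 0.15 (adjusted p = 1.78e-06). It was at 6.79, 6.87, 4.80 and 4.93 CPM in B6 and 30.5, 37.9, 25.0 and 34.1 CPM in CD103Tg, with a wide gap between the groups. Ckap2l, a spindle pole protein, had the smallest of the 5, 1.71 ± 0.18, from 6.03, 4.95, 4.06 and 3.45 CPM to 15.8, 22.6, 12.9 and 18.7 CPM. Exon bases of Prc1 overlap those of Rccd1 over 11.1% of its length. Nusap1, which links microtubules around chromosomes, rose by 2.20 ± 0.25, and Tpx2, which activates Aurora A and nucleates microtubules, by 1.86 ± 0.15. Stmn1, a tubulin-binding protein that destabilizes microtubules, rose by 1.82 ± 0.13, from 57.6, 51.3, 53.4 and 44.0 CPM to 163, 208, 147 and 231 CPM.

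Chromosome structure was the role with opposite directions: 8 of its 9 genes rose and Smc4 fell. Mki67, the Ki-67 antigen that coats mitotic chromosomes (chromosome 7, 135689784 to 135716361), was at 11.5, 8.99, 10.2 and 6.33 CPM in B6 and 36.7, 46.9, 33.2 and 56.1 CPM in CD103Tg, a difference of 2.11 ± 0.18. Top2a, the topoisomerase that untangles sister chromatids, was at 34.7, 32.5, 29.9 and 20.3 CPM in B6 and 108, 127, 96.8 and 157 CPM in CD103Tg, a difference of 2.02 ± 0.17. Hmgb2, a chromatin protein abundant in cycling cells, rose by 0.97 ± 0.09, and Cdca5, which encodes the cohesin protector sororin, by 1.64 ± 0.16. Among the non-SMC subunits of condensin I, Ncapg had the smallest p of the 9 genes (adjusted p = 8.63e-06) and rose by 1.94 ± 0.16, from 6.62, 8.07, 4.25 and 5.41 CPM to 25.3, 25.0, 21.6 and 31.1 CPM. Ncaph rose by 1.40 ± 0.15 and Ncapd2 by 0.66 ± 0.08, so the subunits of this complex differed in the size of their rise. Exon bases of Ncapg overlap those of Lcorl over 13.4% of its length, and Nusap1, Cdca8, Cdc20 and Kif22 overlap other genes over 1.96% to 4.48% of theirs. Of the SMC core shared by both condensins, Smc2 rose by 0.51 ± 0.10.

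Smc4, the partner of SMC2 in that core (chromosome 3, 69004738 to 69034623), fell. It was at 341, 309, 327 and 308 CPM in B6 and 209, 224, 211 and 252 CPM in CD103Tg, and the groups were well apart. The log2 difference was -0.52 with a 95% interval of -0.67 to -0.37 (adjusted p = 0.000150). Over 20 alternative settings, the Smc4 difference ran from -0.60 to -0.49, and the call was lost only where a difference of at least 1 was required. The table gives 1 value per gene, so transcript forms of Smc4 were not examined.

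The 3 cytokinesis genes rose by different amounts. Anln, which encodes the contractile ring protein anillin (chromosome 9, 22332012 to 22389188), was at 1.70, 1.58, 0.901 and 0.973 CPM in B6 and 6.49, 8.91, 6.98 and 11.3 CPM in CD103Tg. Its difference was 2.03 ± 0.18 (adjusted p = 1.30e-05), and the ratio of the means, 6.53, was the largest of the 50. Ect2, the exchange factor that activates RhoA at the division plane, rose by 0.99 ± 0.15. Racgap1, the other component of centralspindlin, was at 214, 236, 216 and 197 CPM in B6 and 268, 283, 238 and 262 CPM in CD103Tg, a difference of 0.28 ± 0.07 (adjusted p = 0.00854) with the highest B6 library just below the lowest CD103Tg library.

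**Figure D2:**
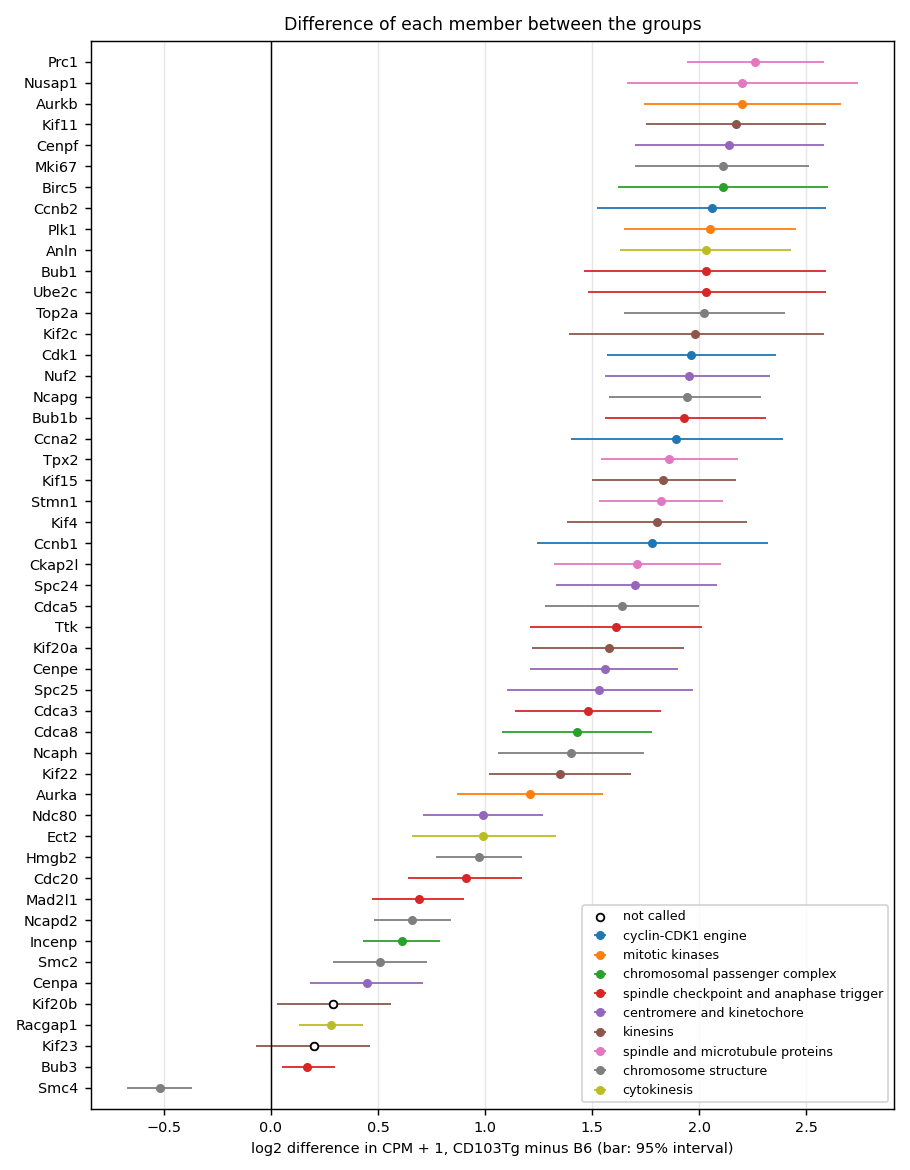
Log2 difference in CPM + 1 (CD103Tg minus B6, 4 libraries each) of the 50 mitosis genes in order of size, with 95% intervals from limma and colours for roles; open points did not pass the test. The points run from Smc4 at -0.52 to Prc1 at 2.26, and 36 of the 50 lie at 1 or above.

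The size of the difference went with the level in B6 cells. On a per-length scale, mean CPM per kb of exon, the 10 members with the highest B6 levels were Smc4, Hmgb2, Racgap1, Stmn1, Bub3, Smc2, Cdc20, Incenp, Ncapd2 and Ccnb2, at 3.69 to 61.6 CPM per kb. Their median log2 difference was 0.63, and 8 of the 10 were under 1. The other 40 members, at 0.121 to 3.26 CPM per kb, had a median difference of 1.82, and 6 were under 1. Over the 50 genes, Spearman's rho between B6 level per kb and log2 difference was -0.61. That is a description across genes that share the same 8 libraries, and the B6 value enters both measures. Stmn1 and Ccnb2 were among the 10 highest per kb in B6 and yet rose strongly. Ccnb2 was the last of the 10, at 3.69 CPM per kb and a B6 mean of 5.64 CPM. Per kb, Stmn1 went from 26.8 to 97.3 CPM and became the highest of the 50, while Smc4 went from 61.6 to 43.0 CPM and moved from the first to the third place. Hmgb2 was second in both groups, at 43.9 and 86.3 CPM per kb.

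**Figure D3:**
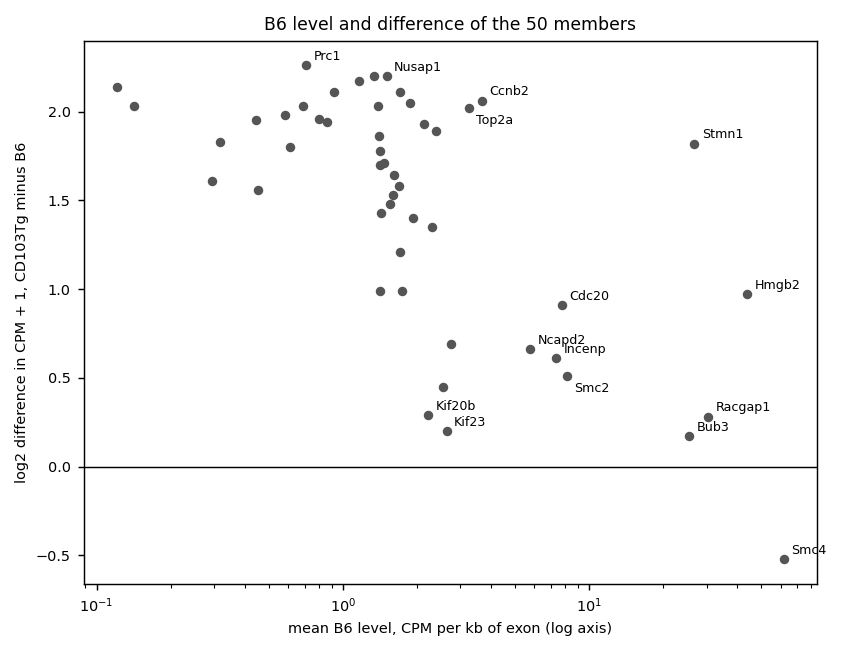
Mean B6 level (CPM per kb of exon, log axis) against the log2 difference in CPM + 1 (CD103Tg minus B6) for the 50 mitosis genes, 1 point per gene. Of the 10 highest points along the level axis, 8 lie under a difference of 1, and Stmn1 and Ccnb2 lie above it.

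Unequal change within complexes was tested on ratios of partner genes, which do not depend on how libraries are scaled. For 15 pairs, the log2 ratio of CPM + 0.1 was taken in each library and compared by an exact two-sided permutation test over 70 assignments, whose smallest p is 0.0286. The ratio shifted in 9 pairs, each at an exact permutation p = 0.0286, or 0.0476 after Benjamini-Hochberg adjustment over the 15 pairs. In these 9 pairs the 4 CD103Tg ratios did not overlap the 4 B6 ratios. The pairs were chosen with earlier results of these data known, so the p-values describe these pairs and are not independent support. Among single tested genes, 17.4% had every CD103Tg library above every B6 library and 13.6% had every one below. The share among ratios of other gene pairs was not computed. The adjusted value rests on 9 pairs reaching the smallest p together: without any one CD103Tg library no pair passed, while without any one B6 library 9 did.

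Within condensin, the log2 ratio of Smc4 to Smc2 was 3.02, 2.66, 2.88 and 2.84 in B6 and 1.89, 1.72, 1.90 and 1.72 in CD103Tg, a shift of -1.04 ± 0.09 (SE). The 2 genes of the shared core thus changed in opposite directions, and with Smc4 down and Smc2 up their levels came closer. Ncapd2 to Ncapg shifted by -1.42 ± 0.17 and Ncaph to Ncapg by -0.60 ± 0.19, with Ncapg gaining on both partners. Within the NDC80 complex, Nuf2 to Ndc80 shifted by 1.20 ± 0.20, from a mean log2 ratio of -1.70 to -0.50, and Ndc80 to Spc24 by -0.87 ± 0.11. Ndc80 was thus the subunit that rose less than its partners. The inner pair Spc25 to Spc24 shifted by -0.23 ± 0.18 and did not pass (adjusted p = 0.330).

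Among the kinases and their partners, Aurkb to Aurka shifted by 1.09 ± 0.28, from a mean log2 ratio of -0.20 to 0.90, and Incenp to Aurkb by -1.83 ± 0.29. Birc5 to Aurkb shifted by -0.17 ± 0.11 and did not pass (adjusted p = 0.273). Bub3 to Bub1 had the widest shift, -2.19 ± 0.43. In B6 replicates 1 to 4 this ratio was 5.23, 5.75, 5.87 and 7.06, and in CD103Tg 3.88, 3.52, 4.26 and 3.50. Bub1b to Bub1 shifted by -0.33 ± 0.29 and did not pass (adjusted p = 0.330). Kif20b to Kif20a shifted by -1.38 ± 0.11, from 1.07 to -0.31.

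The remaining ratios overlapped between the groups. Ccnb2 to Ccnb1 shifted by 0.30 ± 0.14 (exact permutation test, adjusted p = 0.129) and Ccna2 to Ccnb1 by 0.04 ± 0.13 (0.714). Kif23 to Racgap1, the pair that forms centralspindlin, had a mean log2 ratio of -3.37 in B6 and -3.45 in CD103Tg, a shift of -0.08 ± 0.16 (0.673).

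**Figure D4:**
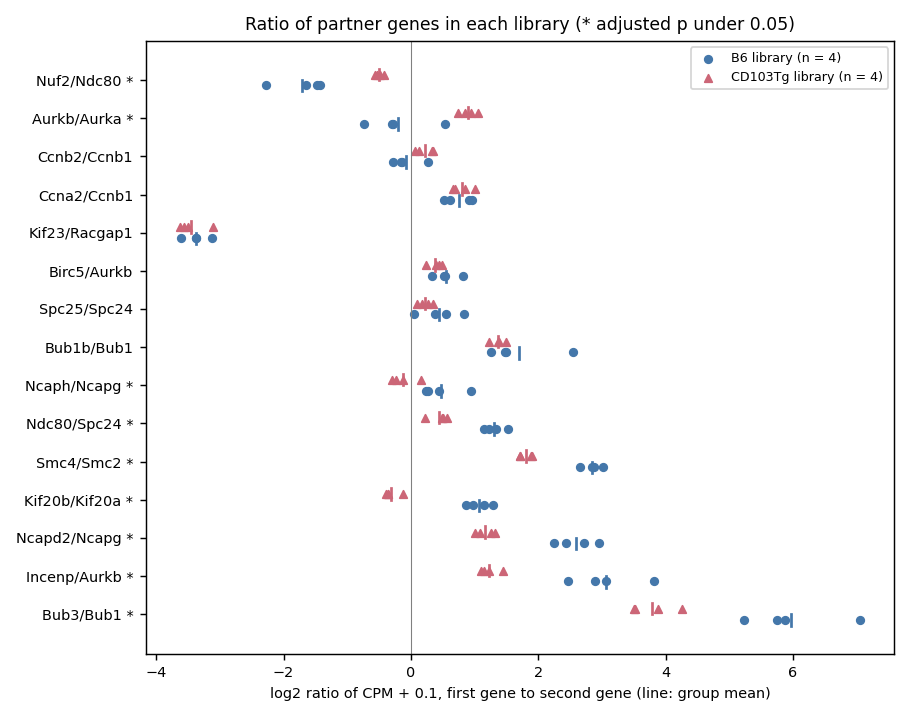
Log2 ratio of CPM + 0.1 of 15 pairs of partner genes in each of 4 B6 libraries (circles) and 4 CD103Tg libraries (triangles), with group means as short lines; a star marks an adjusted p under 0.05 in the exact permutation test. The 9 starred pairs show no overlap, with the widest shift for Bub3/Bub1, and the ratio for Kif23/Racgap1 lies near -3.4 in both groups.

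Other genes of cell division were taken from 8 lists of 162 tested genes. Of them, 83 rose (51.2%, beside 17.4% of all tested genes) and 8 fell (4.94%, beside 13.8%), with a median log2 difference of 0.22. The number that fell moved with the scaling and with the libraries used. It was 12 with equal totals and with quantile normalization. It was 3 without B6 replicate 1 and without CD103Tg replicate 2 or 3. It was 4 without B6 replicate 2 and 5 without B6 replicate 3 or CD103Tg replicate 1. It was 11 without B6 replicate 4 and 13 without both libraries numbered 4. Of 19 cell cycle transcription regulators, 11 rose (57.9%, beside 17.4% of tested genes) and 1 fell, with a median of 0.23. The DREAM core genes Lin9, Lin52, Lin54 and Rbbp4 had log2 differences of -0.13, 0.00, -0.04 and 0.02 and were not called, while Lin37 of the same core rose by 0.30. These 5 were named after their values were seen. Elsewhere in the list, Mybl2, the B-MYB gene, rose by 1.54 ± 0.16, Tfdp1 by 0.38, Rbl2 by 0.18 and E2f4 by 0.17. Rbl1 (0.23) and Tfdp2 (-0.09) were not called. Mybl2, Tfdp1, Rbl2, E2f4, Rbl1 and Tfdp2 were also named after their values were seen. Foxm1, a forkhead activator of mitotic genes, was at 3.48, 4.78, 4.20 and 4.08 CPM in B6 and 10.5, 15.5, 11.5 and 16.4 CPM in CD103Tg, a difference of 1.48 ± 0.15. E2f1, an activator of S phase genes, rose by 1.34 ± 0.12, and E2f8, an atypical E2F repressor, by 1.92 ± 0.23. E2f5, a repressor E2F that works with pocket proteins, fell by 0.35 on the log2 scale (adjusted p = 0.0140).

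In CDK1 control, 6 of 17 genes rose (35.3%, beside 17.4% of tested genes) and none fell (beside 13.8%), with a median of 0.08. Wee1, the kinase that holds CDK1 inactive, rose by 1.18 ± 0.14, and Cks1b, a CDK-binding subunit, by 1.02 ± 0.12. Of the anaphase-promoting complex and its regulators, 5 of 17 rose (29.4%, beside the same 17.4%) and none fell, with a median of 0.07. Fzr1, which encodes the activator CDH1, rose by 0.39 ± 0.06, the core subunit gene Anapc13 by 0.39 ± 0.07 and Fbxo5, which encodes the inhibitor EMI1, by 0.68 ± 0.13. Most genes of these lists did not pass the test, in contrast to Cdc20 and Ube2c of the same pathway, and that contrast was not tested.

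The 17 genes of cohesin and its regulators had a median of -0.02: 5 rose, 2 fell and 10 were not called. The shares, 29.4% higher and 11.8% lower, stand beside 17.4% and 13.8% over all tested genes, so the list as a whole was not far from the background. Espl1, which encodes separase, the protease that opens cohesin rings, was at 2.42, 2.55, 2.22 and 1.13 CPM in B6 and 10.1, 13.5, 8.99 and 17.6 CPM in CD103Tg, a difference of 2.12 ± 0.21. Pttg1, which encodes securin, the inhibitor of separase, was at 57.2, 56.1, 59.8 and 53.9 CPM in B6 and 40.9, 37.3, 34.6 and 34.4 CPM in CD103Tg. It fell by 0.61 on the log2 scale (SE 0.07; adjusted p = 5.69e-05), so protease and inhibitor went in opposite directions, each with groups that did not overlap. Esco2, the cohesin acetyltransferase of S phase, rose by 1.86 ± 0.17, and Nipbl, the cohesin loader, fell by 0.38. The ring subunit genes Smc1a, Smc3 and Rad21 had differences of -0.02, 0.03 and -0.01 and did not pass.

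The 3 remaining condensin II genes rose, Ncapg2 by 1.56 ± 0.20 and Ncaph2 by 0.20 ± 0.05, with a median of 0.33. Of 36 other centromere and kinetochore genes, 23 rose (63.9%, beside 17.4% of tested genes) and 2 fell (5.56%, beside 13.8%), with a median of 0.59. Knl1, the scaffold of the outer kinetochore, rose by 2.01 ± 0.19. Itgb3bp and Cenpq, of the inner kinetochore network, fell by 0.36 and 0.26 (adjusted p = 0.0372 and 0.0381). Both calls were lost without B6 replicate 1 (0.0973 for Itgb3bp and 0.101 for Cenpq), 2 or 3, or CD103Tg replicate 2, 3 or 4, and that of Cenpq also without CD103Tg replicate 1 (0.0907). Of 40 other spindle, kinesin and centrosome genes, 25 rose (62.5%, beside the same 17.4%) and none fell, with a median of 0.72. Kif18b, a kinesin of microtubule plus ends, rose by 2.19 ± 0.23, Melk, a kinase gene of cycling cells, by 1.83 ± 0.15, and Depdc1a by 1.67 ± 0.15.

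Of 13 other cytokinesis genes, 5 rose (38.5%, beside 17.4% of tested genes) and 3 fell (23.1%, beside 13.8%), with a median of -0.02. Iqgap3 and Shcbp1, both known from cycling cells, rose by 1.75 ± 0.17 and 1.69 ± 0.17. Sept7, a septin, Rhoa, the GTPase of the contractile ring, and Tsg101, an ESCRT subunit, fell by 0.18, 0.27 and 0.15 (adjusted p = 0.0318, 0.0359 and 0.0369). Each of the 3 genes also serves cells that do not divide. All 3 calls were lost without B6 replicate 1, CD103Tg replicate 2 or CD103Tg replicate 3, with adjusted p up to 0.0816 for Sept7, 0.0993 for Rhoa and 0.0919 for Tsg101. They were each lost without some of the other libraries too: without B6 replicate 2 (Sept7 and Tsg101) or 3 (Rhoa and Tsg101), and without CD103Tg replicate 1 (Sept7 and Tsg101) or 4 (Rhoa and Tsg101).

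DNA replication genes, the set of the cell cycle nearest to mitosis, rose in 37 of 46 (80.4%, beside 17.4% of tested genes) and fell in none. Their median log2 difference was 0.49, beside 1.71 for the mitosis genes. The difference between these medians was not tested. Rrm2 and Tk1, which supply nucleotides in S phase, rose by 2.21 ± 0.16 and 1.85 ± 0.13.

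**Figure D5:**
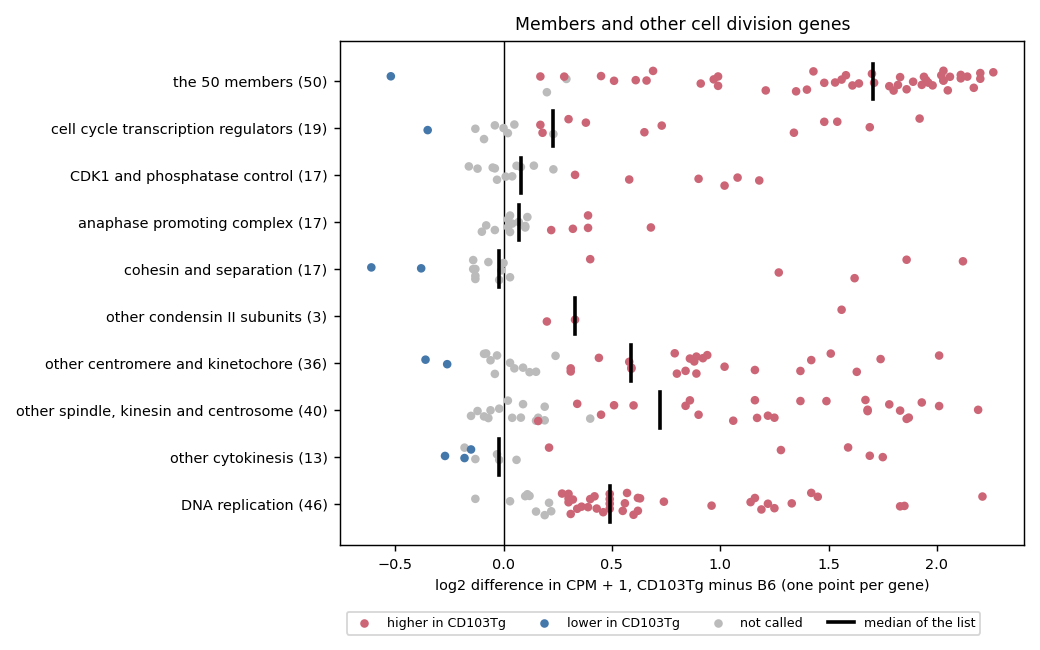
Log2 difference in CPM + 1 (CD103Tg minus B6, 4 libraries each) of the 50 mitosis genes, 8 lists of other cell division genes and the DNA replication genes, 1 point per gene; colour shows the limma call and black lines are list medians. Medians run from -0.02 for the cohesin and other cytokinesis lists to 1.71 for the 50 genes.

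The libraries were ordered alike across most of the 50 genes. B6 replicate 4 was the lowest of its group in 37 of them, CD103Tg replicate 4 the highest in 41 and CD103Tg replicate 3 the lowest in 42. The levels of the 50 genes summed to 1403, 1368, 1334 and 1200 CPM in B6, and to 2165, 2508, 1955 and 2676 CPM in CD103Tg. The summed levels were thus 0.125% to 0.140% of the B6 libraries and 0.196% to 0.267% of the CD103Tg libraries. Without both libraries numbered 4, 46 of the 50 were still called higher, and the call lost was that of Bub3.

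Markers of other cell types also differed between the groups. Plasma cell genes summed to 69.2, 87.6, 82.3 and 66.0 CPM in B6 and 210, 344, 130 and 128 CPM in CD103Tg, with 7 of 9 tested genes higher. Every CD103Tg plasma cell sum was above every B6 sum. Over CD103Tg replicates 1 to 3 the plasma cell sums had the same order as the mitosis sums. Replicate 4 had the lowest plasma cell sum of its group and the highest mitosis sum. The relation between these sums was not tested. The most abundant plasma cell genes were Xbp1, also used by activated T cells, and Igkc, which rose from 1.32 ± 0.958 to 35.9 ± 36.3 CPM (SD, n = 4). Of the defining plasma cell markers, Jchain was at 0.0854 to 0.513 CPM in B6 and 2.57 to 25.1 CPM in CD103Tg, and Sdc1 and Tnfrsf17 gave no value here. NK and innate lymphoid genes summed to 193 to 231 CPM in B6 and 446 to 666 CPM in CD103Tg, with 6 of 6 higher, led by Eomes and Klrk1, which memory CD8 T cells also express, while Ncr1 was at 0.183 to 0.660 CPM throughout. Dendritic cell genes summed to 178 to 215 and 278 to 353 CPM, with 7 of 9 higher, led by Bst2 and Cst3. Gamma delta T cell genes summed to 17.5 to 28.8 and 50.9 to 121 CPM, with 4 of 5 higher, led by Tcrg-C2 and Tcrg-C1. The shares higher were 77.8% for plasma cell, 100% for NK and innate lymphoid, 77.8% for dendritic and 80.0% for gamma delta genes. Over all tested genes the share was 17.4%.

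Sums of other marker lists went the other way or overlapped. B cell genes summed to 846 to 935 CPM in B6 and 448 to 625 CPM in CD103Tg, led by Ighm, which fell, and Cd22, which rose. The lower sum came mostly from Ighm, at 763 to 852 CPM in B6 and 304 to 493 CPM in CD103Tg. The sum thus does not describe the list as a whole. Of the 6 tested B cell genes, 3 were higher and 2 lower, with a median log2 difference of 0.43. Their defining marker Ms4a1 was near 0, at up to 0.383 CPM in B6 and up to 1.76 CPM in CD103Tg. CD4 T cell genes summed to 46.8 to 52.5 and 28.5 to 35.2 CPM, almost wholly Icos, with Zbtb7b second, while Cd4 and Foxp3 gave no value here. Immature thymocyte genes summed to 293 to 321 and 243 to 249 CPM, led by Themis and Cd1d1. Rag1, Rag2 and Ptcra of that list gave no value here, and Dntt did not pass the filter on low values. Myeloid genes, led by Lyz2 and Csf1r, summed to 4.67 to 68.7 and 14.6 to 97.9 CPM. Erythroid genes, led by Tfrc and Hbb-bs, summed to 48.9, 51.9, 49.1 and 107 CPM in B6 and 38.2, 33.1, 38.5 and 228 CPM in CD103Tg. Replicate 4 stood apart in both groups, with the lowest mitosis sum in B6 and the highest in CD103Tg. No marker present in the table was at 0 in every library. The part of these cell types in the higher mitosis genes was not tested.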

How the data were processed

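RNA-seq was made from 4 B6 and 4 CD103Tg samples of sorted lymph node CD8 T cells with SMART-Seq v4 and Nextera XT, per the labels' protocols, without molecular identifiers or strand marks. Tools listed in the submitters' processing notes are STAR 2.7.0f and RSEM, with bcl2fastq 2.17 and cutadapt 1.18, and the builds GRCm38 and mm10. The authors deposited a normalized signal per gene, CPM on TMM-scaled library sizes, per the labels' column descriptions. Its columns sum to 962335 to 1022065. The filter that left 13245 genes, and the annotation, are not given in the sources used here. All 13245 IDs matched GENCODE M21 (GRCm38), which gave coordinates and exon lengths. RSEM divides reads that match several genes by estimate, and near-identical copies of the members were not examined. Low values step in hundredths of a read, of which 62.9% to 65.1% were whole within 0.005, so no count test was run.

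Genotype differences were fitted with limma 3.58.1 in R 4.3.3 (lmFit, then eBayes with trend) on log2(CPM + 1), two-sided, over 11503 genes, those whose mean reached 1 CPM. Adjusted p-values are Benjamini-Hochberg over those genes, and calls are at 0.05. A difference is CD103Tg minus B6, and a pseudocount of 1 understates changes of low genes. Python 3.11.15, numpy 2.4.6, scipy 1.17.1, pandas 2.3.3 and matplotlib 3.10.9 did the rest. Full values are given, within each role, for the genes with the smallest p and the largest and smallest difference and for those not called or lower, and by like rules within other lists, where some genes are not reported here. The members, lists and pairs were chosen with earlier results of these data known. Alternatives were other pseudocounts (0.1 and 5), filters, scalings, robust eBayes, voom on estimated reads, a replicate block and leaving out libraries.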

Additional observations from a re-analysis of the deposited data

Results flagged for a closer look

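A gap test on 4 samples (Dixon, 95% level) was applied to each named gene in each group. It marked 8 of 156 groups of 4 libraries, and chance alone marks about 1 in 20. In 4 of the 8 the value set apart was that of B6 replicate 4, on the low side and in genes of the 50: Cdk1 at 2.36 CPM (other B6 libraries 4.31 to 4.58), Plk1 at 2.39 (4.66 to 4.74), Nuf2 at 1.69 (3.13 to 3.24) and Kif2c at 0.973 (2.97 to 3.16). The same library was set apart on the high side for Itgae, at 174 CPM beside 37.5 to 51.4. Kif20b in B6 replicate 2 was at 18.7 CPM, beside 14.1 to 14.7. Outside the 50, Itgb3bp in CD103Tg replicate 1 was at 9.47 CPM, beside 7.55 to 7.80, and Iqgap3 in B6 replicate 1 was at 1.21 CPM, beside 0.594 to 0.663.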

How the results depend on the processing

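Among 20 alternative settings, 45 to 48 of the 50 mitosis genes were called higher, except that 36 were when a log2 difference of at least 1 was also required, and no member changed direction. The count of 45 came with the filter at a mean of at least 5 CPM. With the minimum difference of 1, 419 of all genes were called higher and 152 lower, 0 of the 50 lower, 42 of the other mitotic genes higher and 0 lower, and 11 replication genes higher. The balance of calls over all genes turned with scaling: 1756 were higher and 1848 lower with equal totals, and 1741 and 1995 with quantile normalization. Without 1 library, the other mitotic genes called lower numbered 3 to 11, and 13 without both libraries numbered 4. They numbered 12 with equal totals and with quantile normalization. The cause was not tested. With the replicate number as a block, 48 of the 50 were higher (Kif20b passed, at adjusted p = 0.0388; outside the 50, Tsg101 was lost, at 0.0520), and 2029 genes were higher and 1653 lower over all. The deviations of same-numbered libraries correlated at 0.22, 0.35, -0.08 and 0.12, and B6 replicates 3 and 4 correlated best with CD103Tg replicates 4 (0.13) and 3 (0.24), while B6 replicates 1 and 2 correlated best with their own numbers. The labels do not say that a number marks a shared animal, batch or day, and not every pair was over 0.1, so the block was kept as an alternative. Partner pairs with a shifted ratio numbered 0 to 9 without 1 library: 0 without any one CD103Tg library, and 0 with the replicate block, whose exact sign-flip test cannot go below 0.125. Reads without molecular identifiers are not independent molecules, so depth covers counting error only.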
